A study of Mus musculus with 3 samples.

Results

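The inhibitor of DNA binding genes Id1, Id2, Id3 and Id4 were followed through single-cell RNA sequencing of the mouse retina. They were chosen by name, and 4 of 4 were found among the 18545 genes of the matrix. The mice were 8 weeks old, of strain C57BL/6J per the labels, and kept in darkness for life, which slows the degeneration. There were 3 groups: wild-type mice on the base diet (WT), mice homozygous for rd10 fed that diet (rd10-vehicle, or vehicle), and rd10 mice whose diet held tamsulosin, metoprolol and bromocriptine (rd10-TMB, or TMB). The rd10 allele is a point mutation of Pde6b, a rod phosphodiesterase gene, and rods and then cones are lost. Of the 3 drugs, bromocriptine is a dopamine agonist, and the others are antagonists of adrenergic receptors, metoprolol of the beta-1 and tamsulosin of the alpha-1 type. Both rd10 libraries came from female mice and the WT library from both sexes. Each group was 1 pooled library, of 4 mice per the labels and of fewer for the rd10 groups in the text of the study, so there was no replicate and no test between groups. The intervals given are 95% counting intervals, and they say nothing of the spread between mice.

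Id proteins have a helix-loop-helix domain and no DNA-binding region. They pair with E proteins, the shared partners of tissue-specific basic helix-loop-helix (bHLH) factors, and keep them off DNA. Bone morphogenetic proteins (BMPs) bind paired type I and type II receptors, which phosphorylate Smad1, Smad5 and Smad9. These join Smad4 and switch on the Id genes, which are widely used as a readout of the pathway. In blood vessels, the same Smads are reached through the receptor Acvrl1 and its partner endoglin (Eng). Id1 and Id3 are known from endothelium and glia, and Id4 from astrocytes and certain neurons.

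In the GENCODE annotation of mm10 (GRCm38), Id1 lies on the plus strand at chr2:152736251-152737410, Id2 on the minus strand at chr12:25093799-25096092, Id3 on the plus strand at chr4:136143822-136145392 and Id4 on the plus strand at chr13:48261116-48266028. All 4 are protein-coding. The bases before the transcription start are shown for Id2, Id3 and Id4 because Smads are known to bind GGCGCC and CAGAC, and the promoters show how far the 3 genes share these letters. The RefSeq table (GRCm38.p6) held a promoter for 3 of the 4 genes, Id1 being the other. Each sequence runs 5′ to 3′ on the strand of its gene over the 250 bases before the start, and capitals mark GGCGCC and CAGAC on either strand.
Id2, chr12:25096093-25096342, minus strand: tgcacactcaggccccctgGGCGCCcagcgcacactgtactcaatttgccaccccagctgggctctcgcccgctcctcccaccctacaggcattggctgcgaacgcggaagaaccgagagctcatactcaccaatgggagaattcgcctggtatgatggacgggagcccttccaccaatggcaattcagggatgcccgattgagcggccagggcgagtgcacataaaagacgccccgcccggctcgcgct
Id3, chr4:136143572-136143821, plus strand: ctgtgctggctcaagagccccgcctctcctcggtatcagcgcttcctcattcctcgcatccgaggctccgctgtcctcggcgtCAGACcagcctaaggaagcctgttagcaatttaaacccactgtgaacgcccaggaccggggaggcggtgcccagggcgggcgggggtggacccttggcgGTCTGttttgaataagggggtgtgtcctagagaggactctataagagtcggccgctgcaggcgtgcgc
Id4, chr13:48260866-48261115, plus strand: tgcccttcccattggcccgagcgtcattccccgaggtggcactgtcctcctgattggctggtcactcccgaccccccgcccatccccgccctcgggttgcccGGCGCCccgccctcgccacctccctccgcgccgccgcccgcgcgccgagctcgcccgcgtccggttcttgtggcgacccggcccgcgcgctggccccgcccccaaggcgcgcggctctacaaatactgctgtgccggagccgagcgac

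GGCGCC stood 231 bases before the start in Id2 and 148 before it in Id4, and was not in this window of Id3. It was present in 9.59% of the 32851 promoter windows of the same length. CAGAC or its complement GTCTG stood 167 and 68 bases before the start in Id3 only among the 3, and in 42.2% of all windows. Of 3 further motifs searched on both strands, CAGCTG, an E-box letter set, was in Id2 (13% of all windows), and neither CACGTG (6.02%) nor the cyclic AMP response element TGACGTCA (1.55%) was in any of the 3 windows. A match is only a match of letters.

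The WT, rd10-vehicle and rd10-TMB libraries held 4478, 5952 and 4812 cells and 18882951, 37002532 and 29192530 unique molecular identifiers (UMIs), each UMI standing for 1 captured RNA molecule. Classes carry names ending in "-like" because they were rebuilt from marker genes on the clusters of the authors. Levels are UMIs of a gene per 1000000 UMIs of the class in that library (CPM). MG-like cells (Müller glia, the radial support cells of the retina) numbered 530, 2492 and 1748, and their 14 glial markers summed to between 45491 and 50098 CPM. The endothelial-like cluster held 137, 156 and 100 cells, but in 46, 7 and 8 of them the markers of bipolar cells, which are neurons, had at least as many UMIs as the endothelial and pericyte markers together. These cells went against the label and held 0, 1 and 0 UMIs of Id1, Id2 and Id3 together, so endothelial values are given without them and, where it matters, with them. Leaving them out was decided after the data were seen. Pairs of libraries shared 7 to 10 cell barcodes.

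Id1, Id2 and Id3 were genes of glia and vessels. MG-like, astrocyte-like, endothelial-like and pericyte-like cells together carried 98.9%, 96.4% and 99.3% of all Id1 UMIs of the WT, rd10-vehicle and rd10-TMB libraries, 92.3%, 95.8% and 97.5% of those of Id2, and 98.9%, 97.0% and 99.1% of those of Id3. For Id4 these shares were 24.6%, 85.6% and 84.2%, and 52.9% of its WT UMIs came from amacrine-like cells, the inhibitory interneurons of the inner retina. Such shares follow the make-up of each library as well as the level per cell.

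Id1 stood highest in endothelial-like cells in each library, at 2517 CPM in WT, 2930 under vehicle and 2848 under TMB. Astrocyte-like cells came next, at 1062, 895 and 891 CPM. MG-like cells held 740, 369 and 561 CPM and pericyte-like cells 242, 449 and 178 CPM. In the order of the classes with at least 20 cells, the only neighbours among these 4 whose intervals overlapped were pericyte-like and MG-like cells in rd10-vehicle. In rod-like cells, which are not known for Id1, it was at 5.56, 10.5 and 11.1 CPM.

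For Id3 the order was led by astrocyte-like cells in all 3 libraries, at 1932, 2402 and 2968 CPM. Endothelial-like cells were at 1384, 1694 and 1613 CPM and pericyte-like cells at 725, 1389 and 1860 CPM. MG-like cells held 723, 666 and 835 CPM. Pericyte-like and MG-like levels were not distinguishable in WT, and pericyte-like and endothelial-like levels overlapped in both rd10 libraries.

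Among classes with at least 20 cells in the library, Id2 was highest in astrocyte-like cells, at 876, 337 and 760 CPM, then in MG-like cells in WT and rd10-TMB, at 394 and 229 CPM. In rd10-vehicle, microglia-like cells (the resident macrophages, 52 cells) held 233 CPM, above the 177 CPM of MG-like cells, and in rd10-TMB (30 cells) they held 129 CPM. WT had 6 such cells and 0 Id2 UMIs in them, which allows up to 186 CPM. In 35 cells like the retinal pigment epithelium of rd10-vehicle Id2 was at 236 CPM, from 33 UMIs. Their interval of 163 to 332 CPM overlapped that of astrocyte-like cells there, at 307 to 369 CPM. In endothelial-like cells Id2 was at 117, 101 and 77.5 CPM.

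Id4 had a different pattern, with astrocyte-like cells at 528, 428 and 504.1 CPM and amacrine-like cells at 217, 445 and 408 CPM. The intervals of these classes overlapped in both rd10 libraries and lay apart in WT. In WT, 37 retinal ganglion-like cells, the output neurons of the retina, were at 231 CPM, and their interval of 196 to 270 CPM overlapped that of amacrine-like cells. Endothelial-like cells were between 4.49 and 7.34 CPM, so that the class with the most Id1 had almost no Id4.

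**Figure D1:**
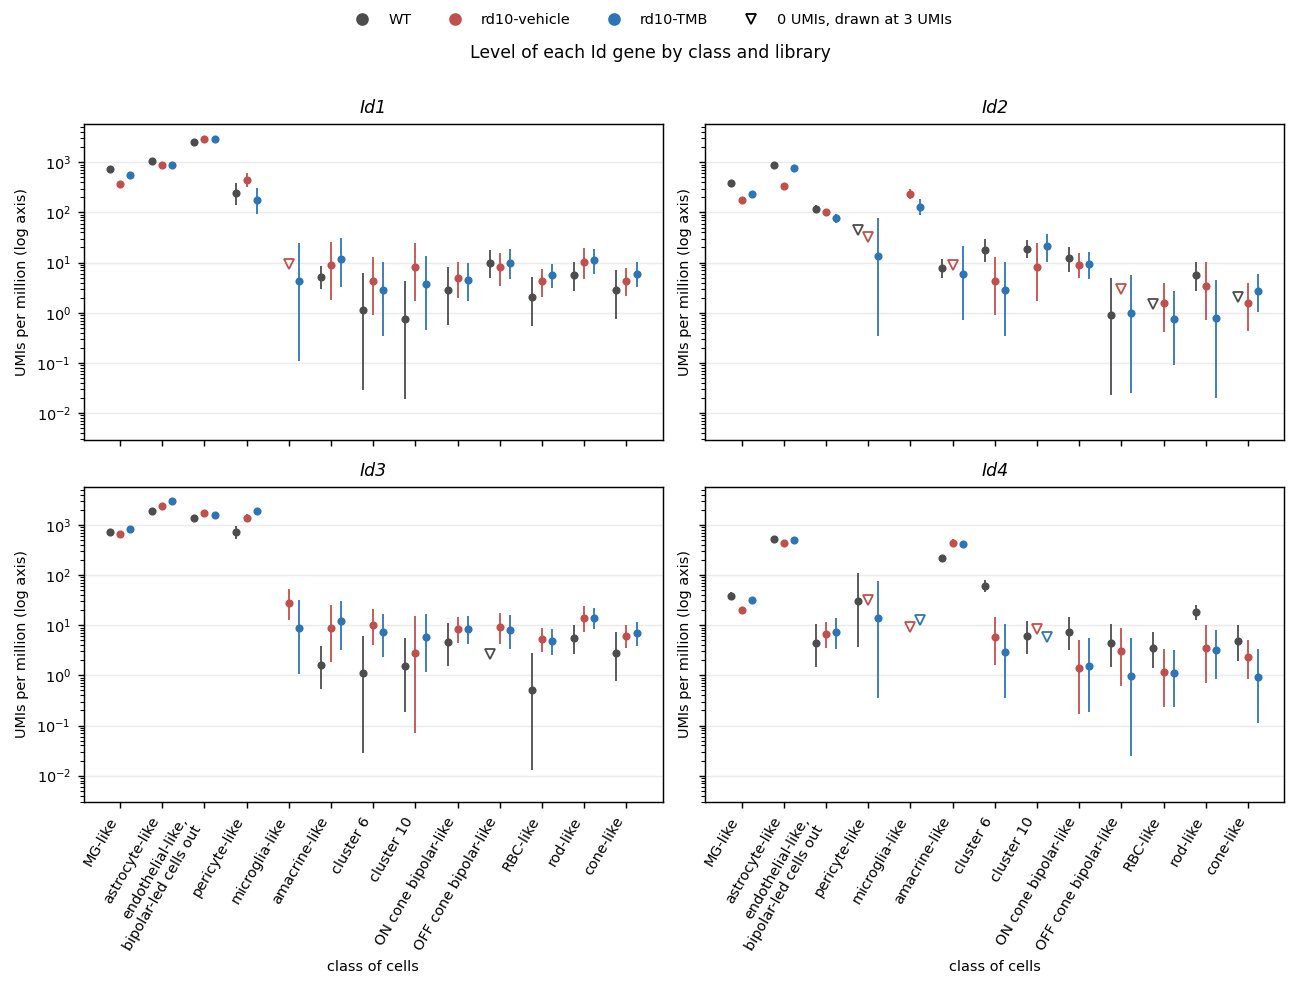
Level of each Id gene in CPM (log axis) by class (x axis) and library (colour), for a chosen set of classes where they had at least 20 cells in the library. Retinal ganglion-like cells of WT, and pigment epithelium-like and cluster 18 cells of rd10-vehicle, passed this limit but are not drawn. Of these, ganglion-like cells held Id4 at 231 CPM. The other groups held Id3 at 351 and 734 CPM and Id1 at 78.8 and 106 CPM. Points are CPM, bars are 95% Poisson intervals, and open triangles mark 0 UMIs and are drawn at the level of 3 UMIs. Id1 and Id3 lie above 100 CPM in the 4 glial and vascular classes at the left and mostly below 20 CPM in the other classes drawn. Id4 is high in astrocyte-like and amacrine-like cells.

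Over the 10 classes with at least 50 cells in each library, which leaves out astrocyte-like and pericyte-like cells, 30 points in all, the log2 levels (CPM with 10 added) of Id1 and Id3 had a Pearson r of 0.987, those of Id1 and Id2 of 0.850 and those of Id2 and Id3 of 0.886, while those of Id4 with the other 3 were between 0.0543 and 0.128. Of 7704 genes with at least 50 CPM in some class, the most alike to Id1 were Flt1, a receptor for vascular endothelial growth factor (r = 0.995), S1pr1 and Serpinh1. Id2 was most like Kdr (r = 0.957), Inf2 and Prex2. Id3 was most like Cdc42ep1 (r = 0.992), Plscr4 and Fkbp9, and Id4 was most like Ubash3b (r = 0.952), Nav3 and Npnt. The points share libraries, and these values describe mainly which classes hold the genes.

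In MG-like cells, Id1, Id2 and Id4 were lower in rd10-vehicle than in WT, Id3 was nearly level, and all 4 genes were higher with TMB than with vehicle. Id1 was at 740 CPM in WT, 369 under vehicle and 561 under TMB, from 2456, 8194 and 9413 UMIs. The log2 ratio of rd10-vehicle over WT was -1.0 (95% interval -1.07 to -0.94), and that of rd10-TMB over rd10-vehicle was 0.60 (0.56 to 0.65), or 1.52-fold. The rd10-TMB level stayed below WT, with a log2 ratio of -0.40 (-0.46 to -0.33).

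Id2 was the member with the lowest ratio in rd10-vehicle. Its MG-like level was 394 CPM in WT, 177 under vehicle and 229 under TMB. The ratio of rd10-vehicle over WT was -1.16 on the log2 scale (-1.25 to -1.06), or 2.23-fold lower. It was 0.38 (0.31 to 0.44) for rd10-TMB over rd10-vehicle, and rd10-TMB remained 1.72-fold below WT, at -0.78 (-0.87 to -0.69).

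Id3 went from 723 CPM in WT to 666 under vehicle and 835 under TMB. Its ratio of rd10-vehicle over WT was small, at -0.12 (-0.18 to -0.06), and came to -0.02 when WT cells were limited to those with an Xist UMI and no Y-linked UMI, as in females. For rd10-TMB over rd10-vehicle it was 0.33 (0.29 to 0.36), and rd10-TMB lay above WT by 0.21 (0.15 to 0.27). Id3 was thus the only one of the 4 above its WT level in rd10-TMB MG-like cells.

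Id4 was scarce in MG-like cells, with 129, 440 and 540 UMIs, or 38.9, 19.8 and 32.2 CPM. The log2 ratio was -0.98 (-1.26 to -0.68) for rd10-vehicle over WT and 0.70 (0.52 to 0.88) for rd10-TMB over rd10-vehicle, or 1.62-fold. The ratio of rd10-TMB over WT was -0.28, and its interval of -0.55 to 0.02 included 0. With each cell thinned to 1000 UMIs, the ratio of rd10-vehicle over WT shrank to -0.40 and that of rd10-TMB over rd10-vehicle to 0.30.

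Of the 4 genes, 3 (Id1, Id2 and Id4) lay at least 1.5-fold lower in rd10-vehicle than in WT, where 12.4% of 13871 genes with at least 20 UMIs in MG-like cells did, and 0 lay 1.5-fold higher, where 9.78% did. The Id4 call was lost with cells thinned (-0.40) and at a 2-fold limit, and rod-like Id4, read as background, was at 18.4 CPM in WT and 3.49 CPM in rd10-vehicle, whose part in it was not tested. For rd10-TMB over WT, 1 (Id2) lay below the limit, against 11.7% of genes, and 0 above it, against 7.88%. For rd10-TMB over rd10-vehicle, 2 (Id1 and Id4) lay above it, against 2.36% of genes, and 0 below it, against 3.75%. Both calls were lost at a 2-fold limit, and each under 1 other setting, Id1 being at 0.58 as a mean over cells and Id4 at 0.30 when thinned, each within 1.5-fold. The medians of all genes for these pairs were -0.07, -0.09 and -0.02. The pairs share libraries, so a low rd10-vehicle value enters both its comparison with WT and that with rd10-TMB. Id1 and Id3 were also picked by the study from these same libraries, and their direction with TMB is no independent evidence.

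Id1, Id2 and Id3 were found in a large share of MG-like cells. With each cell thinned to 1000 UMIs, 38.3% of WT, 23.6% of rd10-vehicle and 32.2% of rd10-TMB cells had an Id1 UMI, against 74.9%, 68.0% and 73.7% at their own depth, where the median was 6300, 8593.5 and 9454.5 UMIs. The thinned intervals were 34.2% to 42.6%, 22.0% to 25.4% and 30% to 34.5%, so WT and rd10-TMB overlapped and rd10-vehicle lay apart. At 2000 UMIs the shares were 54.9% (50.5% to 59.3%), 39.7% (37.8% to 41.7%) and 48.0% (45.6% to 50.4%), and all 3 lay apart. Thinning to 1000 UMIs left out 3, 16 and 21 cells.

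For Id2 the thinned shares were 26.0%, 14.3% and 17.5% (74.3%, 57.6% and 65.8% unthinned), for Id3 40.0%, 38.3% and 45.1% (82.1%, 81.7% and 85.5% unthinned), and for Id4 3.23%, 2.42% and 3.07% (19.8%, 14.8% and 22.5% unthinned), where the intervals overlapped. Rod-like cells, with a median of 1406 to 1536 UMIs, had an Id1 UMI in 0.734%, 0.615% and 1.05% of thinned cells and an Id3 UMI in 0.629%, 1.02% and 1.35%, far below MG-like cells. For Id4 the rod-like share in WT was 2.20% (1.37% to 3.35%), which overlapped that of WT MG-like cells, at 1.89% to 5.11%. A thinned Id4 share of a few percent is thus not told from the rod-like background there. The WT MG-like share did lie above those of rod bipolar (RBC-like) and cone-like cells. These had an Id4 UMI in 0 of 401 and 0 of 273 thinned cells, with upper limits of 0.916% and 1.34%.

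Cells with many UMIs followed the same order as the shares. Among thinned MG-like cells, 7.78% in WT, 3.03% under vehicle and 5.62% under TMB had 3 or more Id1 UMIs. For Id3 these values were 7.97%, 6.34% and 8.63%. The 10% of cells with the most Id1 UMIs at their own depth held 42.6%, 46.9% and 42.7% of them, and the same share of cells by Id4 held 59.7%, 72.7% and 59.4% of its UMIs.

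**Figure D2:**
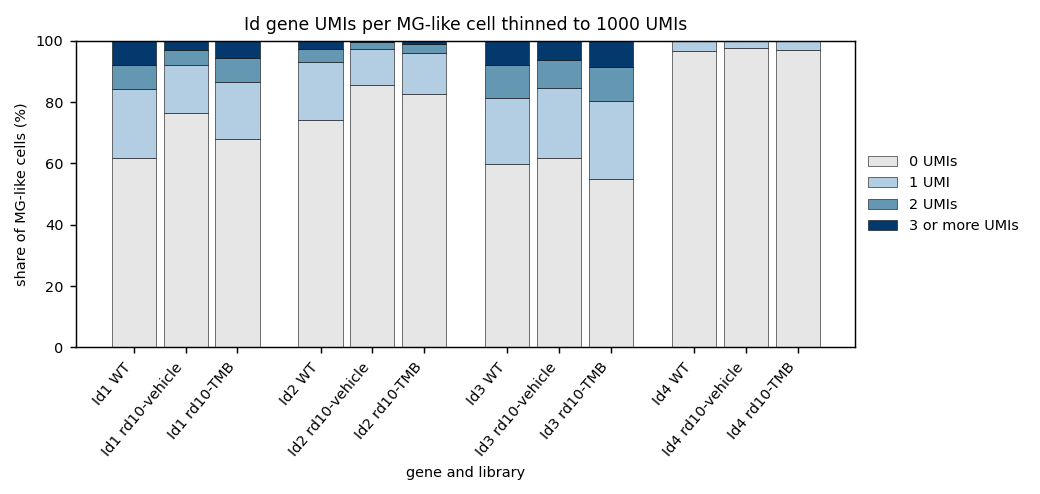
Share of MG-like cells (y axis, %) with 0, 1, 2 and 3 or more UMIs of each Id gene after each cell was thinned to 1000 UMIs, by gene and library (x axis). For Id1, cells with at least 1 UMI make up 38.3% in WT, 23.6% under vehicle and 32.2% under TMB, and for Id3 40.0%, 38.3% and 45.1%.

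Within thinned rd10-TMB MG-like cells, 36.3% of those with an Id3 UMI and 28.8% of those without one had an Id1 UMI. In rd10-vehicle these values were 25.9% and 22.2%, and in WT 40.8% and 36.7%. The intervals lay apart in rd10-TMB (32.9% to 39.8% and 25.9% to 31.8%) and overlapped in the other 2 libraries. Of the other pairs, Id2 and Id4 lay apart in rd10-vehicle, where 30% (18.8% to 43.2%) of cells with an Id4 UMI and 13.9% (12.6% to 15.4%) of those without one had an Id2 UMI.

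Id1 and Id3 did not keep a fixed ratio in MG-like cells. There were 1.02 Id1 UMIs per Id3 UMI in WT (0.967 to 1.08), 0.555 under vehicle (0.540 to 0.570) and 0.672 in rd10-TMB (0.655 to 0.690). In endothelial-like cells the ratio was 1.82, 1.73 and 1.77, with overlapping intervals. In astrocyte-like cells it was 0.550, 0.373 and 0.300. The ratio of UMIs is compared only between libraries and classes, not read as relative abundance.

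Other measures moved with the groups in MG-like cells. The share of cells with a UMI of Lcn2, lipocalin 2, a gene of reactive glia, was 1.70% in WT, 26.2% under vehicle and 17.2% under TMB. These shares were not thinned, and the median depth was 6300, 8593.5 and 9454.5 UMIs. The summed rod markers were at 1114, 1543 and 1667 CPM, the summed cone markers at 121, 281 and 323 CPM, and the summed amacrine markers at 1102, 768 and 794 CPM. Mitochondrial transcripts made up 5.94%, 6.09% and 6.36% of UMIs, and those of ribosomal protein genes 5.58%, 6.46% and 7.01%. The 11 endothelial markers summed to 1515, 1491 and 1448 CPM, which was mostly Kdr (755 to 871 CPM) and Flt1 (610 to 750 CPM), while Cldn5, a tight junction gene that defines endothelium, was at 0.602 to 2.34 CPM and Cdh5 at 0 to 0.0901 CPM, against 2892 to 4220 and 410 to 434 CPM in the endothelial-like cluster. The part of Lcn2-bearing cells was examined by dividing the cells, and that of the other measures in the Id values, Id4 among them, was not tested.

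Among MG-like cells of rd10-vehicle, the 653 with an Lcn2 UMI had less Id1 and Id2 and more Id3 than the 1839 without one. Cells with Lcn2 were deeper, at a median of 10153 against 8175 UMIs in rd10-vehicle and 11722 against 9064.5 in rd10-TMB. The part of depth in this division was not tested. Id1 was at 322 against 393 CPM, Id2 at 152 against 189 CPM and Id3 at 738 against 629 CPM, with log2 ratios of -0.29 (-0.36 to -0.22), -0.31 (-0.41 to -0.21) and 0.23 (0.18 to 0.28). In rd10-TMB the 300 cells with Lcn2 differed from the other 1448 in the same directions, Id1 being at 408 against 610 CPM, Id2 at 160 against 252 CPM and Id3 at 958 against 796 CPM. Id4 was at 17.7 against 20.9 CPM in rd10-vehicle, where the interval of the ratio included 0, and at 26.8 against 33.9 CPM in rd10-TMB.

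Cells without an Lcn2 UMI still differed between libraries. Their Id1 was at 748 CPM in WT, 393 under vehicle and 610 under TMB, with a log2 ratio of -0.93 for rd10-vehicle over WT and 0.63 (0.59 to 0.68) for rd10-TMB over rd10-vehicle. In cells with Lcn2 the second ratio was 0.34 (0.25 to 0.43) for Id1, 0.08 (-0.07 to 0.22) for Id2, 0.38 (0.32 to 0.44) for Id3 and 0.60 (0.22 to 0.98) for Id4. The cells of a pool were not assigned to mice, so whether cells with Lcn2 came more from some mice was not tested.

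**Figure D3:**
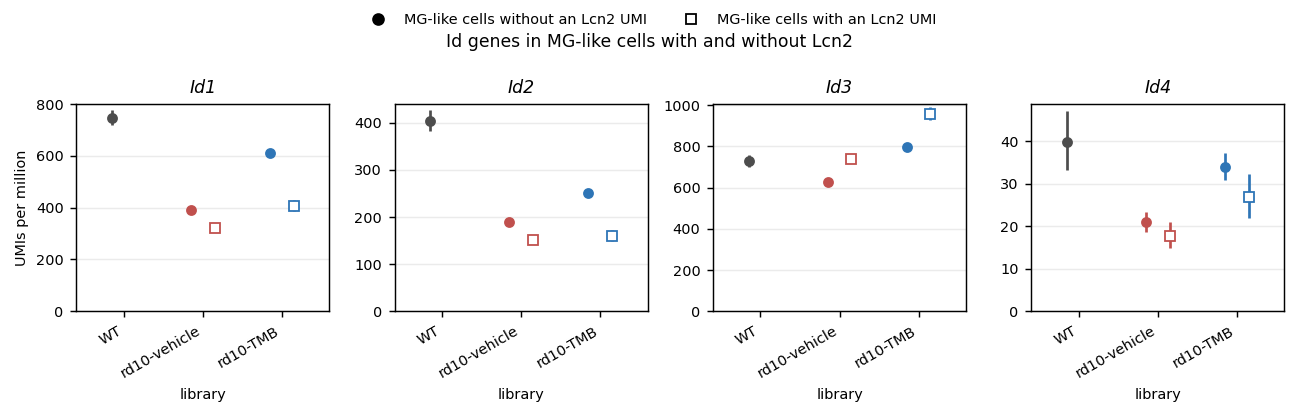
Level of each Id gene in CPM (y axis, linear, from 0) in MG-like cells without (filled circles) and with (open squares) an Lcn2 UMI, by library (x axis), with 95% Poisson intervals. WT cells with Lcn2, 9 in number, are left out. In both rd10 libraries the squares lie below the circles for Id1 and Id2 and above them for Id3.

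In endothelial-like cells at their own depth, Id1 and Id3 were a little higher in both rd10 libraries than in WT. They did not differ between rd10-TMB and rd10-vehicle beyond counting error. Without the cells led by bipolar markers, 91, 149 and 92 cells were left, and their 11 endothelial markers summed to 13113, 13150 and 12218 CPM. Id1 was at 2517, 2930 and 2848 CPM, with a log2 ratio of 0.22 (0.15 to 0.29) for rd10-vehicle over WT, 0.18 (0.11 to 0.25) for rd10-TMB over WT and -0.04 (-0.10 to 0.02) for rd10-TMB over rd10-vehicle. For Id3 the ratios were 0.29 (0.20 to 0.38), 0.22 (0.12 to 0.32) and -0.07 (-0.15 to 0.01). With these cells thinned to 1000 UMIs, Id1 was at 2689 CPM in WT, 2564 under vehicle and 2620 under TMB. The higher Id1 of rd10 thus did not hold with depth made equal. Thinned Id3 was at 1200, 1604 and 1380 CPM.

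With all cells of the cluster, the first ratio was 0.52 for Id1 (2007 against 2874 CPM) and 0.59 for Id3 (1104 against 1662 CPM). Bipolar markers summed to 1733 CPM in WT and 246 and 302 CPM in the rd10 libraries of the whole cluster, and to 72.8, 75.2 and 98.6 CPM without those cells. Pericyte markers remained lower in WT, at 7608 CPM against 9505 and 9709 CPM. In cells where endothelial markers also led pericyte markers (69, 107 and 64 cells), the ratio of rd10-vehicle over WT was 0.27 (0.19 to 0.35) for Id1 and 0.24 (0.14 to 0.35) for Id3.

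Id2 in endothelial-like cells was at 117, 101 and 77.5 CPM, from 130, 179 and 95 UMIs. It was lower in rd10-TMB than in WT, with a log2 ratio of -0.59 (-0.99 to -0.20), and than in rd10-vehicle, with -0.38 (-0.76 to -0.02). In the whole cluster the ratio over WT was -0.30 (-0.70 to 0.09), and where endothelial markers led, that between the rd10 libraries was -0.19 (-0.64 to 0.23), so neither difference held in every set of cells. With cells of the whole cluster thinned, both ratios turned positive, at 0.43 over WT and 0.50 over rd10-vehicle, from 9 or 10 UMIs a library. Of thinned endothelial-like cells 82.2% in WT, 83.9% under vehicle and 81.5% under TMB had an Id1 UMI (95.6%, 98.7% and 100% unthinned, at a median of 9508, 10227 and 10062 UMIs), and 66.7%, 75.2% and 70.7% an Id3 UMI (95.6%, 98.7% and 98.9% unthinned). With cells led by bipolar markers left out, Id1 and Id3 were thus each found in nearly every endothelial-like cell at its own depth. In the whole cluster 63.5%, 94.2% and 92% of cells had an Id1 UMI unthinned, and 63.5%, 94.9% and 91% an Id3 UMI.

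In these cells 0 of 3 Id genes with at least 20 UMIs were 1.5-fold higher in rd10-vehicle than in WT, against 7.40% of all genes, and 0 were lower, against 8.32%. For rd10-TMB over WT 0 of 3 were higher, against 7.32%, and 1 (Id2) was lower, against 8.87%. For rd10-TMB over rd10-vehicle 0 of 4 were higher or lower, against 5.68% and 6.55%. In the whole cluster, 1 of 4 (Id3) was higher in rd10-vehicle than in WT, against 8.23%, and 0 lower, against 16.4%. There 0 of 3 were past the limit for rd10-TMB over WT, against 8.04% higher and 16.5% lower, and 0 of 4 for rd10-TMB over rd10-vehicle, against 5.99% and 6.22%.

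Astrocyte-like cells were few, at 20, 88 and 33. Id2 was at 876 CPM in WT, 337 under vehicle and 760 under TMB, with a log2 ratio of -1.38 (-1.59 to -1.16) for rd10-vehicle over WT and 1.17 (0.98 to 1.37) for rd10-TMB over rd10-vehicle. Its thinned share of cells was 60%, 23.9% and 39.4%, with intervals of 36.1% to 80.9%, 15.4% to 34.1% and 22.9% to 57.9% (90.0%, 70.5% and 87.9% unthinned). Id1 was nearly level between the rd10 libraries, at -0.01 (-0.16 to 0.14). Id3 was at 1932, 2402 and 2968 CPM, higher in rd10-vehicle than in WT by 0.31 (0.19 to 0.44), and with TMB than with vehicle by 0.31 (0.22 to 0.39). Pericyte markers in these cells were at 1096, 1914 and 1752 CPM and rod markers at 355, 166 and 749 CPM, the latter lowest under vehicle, as Id2 was. Cells with an Lcn2 UMI made up 0%, 42.0% and 36.4%. The part of these measures in the Id values was not tested.

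In pericyte-like cells (20, 25 and 22), Id3 rested on 48, 130 and 136 UMIs and was higher in rd10-vehicle than in WT by 0.92 (0.45 to 1.45) and with TMB than with vehicle by 0.42 (0.06 to 0.78). The second difference did not hold with cells thinned to 1000 UMIs, where the level was 1440 CPM under vehicle and 909 CPM under TMB, from 36 and 20 UMIs. Cells with an Id3 UMI made up 30%, 64% and 40.9% unthinned and 15.8%, 48% and 31.8% thinned, with overlapping thinned intervals between the rd10 libraries. Id1 rested on 16, 42 and 13 UMIs and was lower with TMB than with vehicle by -1.26 (-2.36 to -0.41). Id2 had 0, 0 and 1 UMIs. Id3 was above WT in rd10-TMB beyond counting error in MG-like, endothelial-like, astrocyte-like and pericyte-like cells, at log2 ratios of 0.21 to 1.34, and above rd10-vehicle in MG-like and astrocyte-like cells. Rod-like Id3, from 18 UMIs under TMB against 10 in WT, was at the level taken as background and is not read as a change.

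Id4 of neurons followed another course. Amacrine-like cells numbered 756, 105 and 83, and their Id4 was at 217 CPM in WT, 445 under vehicle and 408 under TMB. The log2 ratio over WT was 1.04 (0.77 to 1.29) in rd10-vehicle and 0.92 (0.63 to 1.18) in rd10-TMB, while that between the rd10 libraries was -0.13 (-0.47 to 0.22). With WT limited to cells that held an Xist UMI but none from the Y chromosome, the ratios over WT were 0.21 and 0.083, both within 1.5-fold, and without the top 5% of cells by UMIs they were 0.51 and 0.59. With cells thinned they were 1.26 and 1.15, so the size of the difference from WT depended on the cells taken. Of thinned cells 11.8%, 20.7% and 19.1% had an Id4 UMI (22.1%, 26.7% and 24.1% unthinned, at a median of 2948, 2856 and 2716 UMIs), and the interval of WT overlapped those of both rd10 libraries. In these cells astrocyte markers were at 34.8, 88.4 and 50.6 CPM, rod markers at 1511, 690 and 2196 CPM and bipolar markers at 568, 304 and 521 CPM. The part of these measures in the Id4 values was not tested.

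Almost all of it came from 1 of the 2 amacrine-like clusters. Cluster 5, with 461, 43 and 35 cells, held Id4 at 310, 993 and 746 CPM, and cluster 9, with 295, 62 and 48 cells, at 15.4, 5.31 and 6.50 CPM. Within cluster 5 the ratios over WT were 1.69 (1.41 to 1.94) and 1.27 (0.99 to 1.54). For rd10-TMB over rd10-vehicle the cluster 5 ratio was -0.41 (-0.76 to -0.07), where the interval of the whole class included 0. The cluster holds several kinds of amacrine cell, and whether a kind with more Id4 made up more of the few rd10 cells was not tested.

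In cluster 6, which carried 7 of 12 ON cone bipolar and 6 of 12 amacrine markers and was left unnamed, Id4 had 54 UMIs in 177 WT cells (60.2 CPM), 4 in 180 rd10-vehicle cells and 2 in 152 rd10-TMB cells, with log2 ratios of -3.08 (-5.30 to -1.93) and -3.83 (-7.47 to -2.46). Rod-like cells were at 18.4, 3.49 and 3.17 CPM, from 33, 3 and 4 UMIs, which is the level taken above as background and is not read as a change in rods. In astrocyte-like cells the Id4 ratio of rd10-vehicle over WT was -0.31 (-0.55 to -0.05). Elsewhere 2 small groups of rd10-vehicle cells stood out: cluster 20, with 9 cells, all of that library, and no name, held 426 Id1 UMIs in 9 of 9 cells, and 4 horizontal-like cells held 63 Id3 UMIs. In RBC-like (rod bipolar), cone-like, ON cone bipolar-like, OFF cone bipolar-like and cluster 10 cells, each Id gene had 0 to 25 UMIs a library, or at most 21.0 CPM. Of these, Id3 had 1, 14 and 13 UMIs in RBC-like and 0, 9 and 8 UMIs in OFF cone bipolar-like cells, and such counts are not read as changes. Lens-like cells held Id3 at 433 CPM under vehicle and 506 CPM under TMB, and cluster 18 held it at 998, 734 and 327 CPM, from 11, 236 and 20 UMIs. In 18 and 19 lens-like cells, Id1 was at 29.0 and 288 CPM, from 14 and 29 UMIs, a log2 ratio of 3.26 (2.34 to 4.34). Their median depth was 20634 and 3556 UMIs. Pigment epithelium-like cells, 13, 35 and 16 in number, held 1, 49 and 10 Id3 UMIs. In WT, 18 horizontal-like cells held 39 Id2 UMIs, and cluster 18 held 0, 41 and 22. Such small groups are not read as changes.

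The genes that make, receive and answer BMP signals were counted in MG-like cells. Ligands, receptors, Smads, inhibitors and other targets came to 46 distinct genes of the matrix, of which 34, 31 and 36 had at least 20 UMIs for rd10-vehicle over WT, rd10-TMB over WT and rd10-TMB over rd10-vehicle. Of these 4 lay at least 1.5-fold higher and 1 lower for the first pair (9.78% and 12.4% of all MG-like genes), 3 higher and 2 lower for the second (7.88% and 11.7%), and 2 higher and 2 lower for the third (2.36% and 3.75%). None of the median log2 ratios of these 5 lists went beyond -0.25 and 0.21.

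Among ligands, Bmp3 was the highest in MG-like cells, at 131 CPM in WT, 87.3 under vehicle and 85.8 under TMB. Its ratio over WT was -0.59 (-0.74 to -0.43) and -0.61 (-0.77 to -0.45), and that between the rd10 libraries was -0.03. Bmp5 was at 25.6 to 27.7 CPM, and Bmp4 and Bmp7, the ligands best known from eye development, were at or under 1 CPM. Gdf6 was at 1.62 CPM under vehicle and 2.86 CPM under TMB, from 36 and 48 UMIs, a ratio of 0.81 (0.17 to 1.48), and was 0.69 over WT (-0.40 to 2.61) from 5 WT UMIs.

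The receptors Bmpr2 (123, 97.3 and 103 CPM), Bmpr1a (101, 90.6 and 85.2 CPM) and Bmpr1b (61.7, 50.2 and 46.6 CPM) were all within 1.5-fold between libraries. Acvr1, another type I receptor, was at 9.94, 17.3 and 14.3 CPM, with a ratio of 0.76 (0.28 to 1.36) for rd10-vehicle over WT. Rgmb, a co-receptor, was at 8.43 CPM in WT and 5.25 in rd10-TMB, a ratio of -0.72 (-1.31 to -0.02). Eng had 32 and 11 UMIs in the rd10-vehicle and rd10-TMB libraries, and its ratio was -1.06 (-2.27 to -0.11). Of the Smads, Smad4 was at 59.6 to 65.1, Smad5 at 36.8 to 41.9 and Smad1 at 23.2 to 25.5 CPM. For any pair 0 of 3 passed the limit, against 2.36% to 12.4% of all MG-like genes by pair and direction.

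Of the inhibitors, the secreted Nbl1 (162, 179 and 188 CPM) and Chrdl1 (132, 140 and 131 CPM) and the decoy receptor Bambi (124, 112 and 125 CPM) were the highest and stayed within 1.5-fold. Smurf1, which marks Smads for degradation, was at 6.63 and 10.8 CPM in WT and rd10-vehicle, a ratio of 0.64 (0.07 to 1.40). Fst and Bmper had at most 34 UMIs in any library. Bmper was higher with TMB than with vehicle at 0.95 (0.16 to 1.80). Fst passed the limit against WT on 1 WT UMI, with intervals that included 0.

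Other known BMP targets mostly stayed within 1.5-fold. Hes1, at 1586, 1371 and 1228 CPM, had ratios of -0.21 and -0.16 for rd10-vehicle over WT and rd10-TMB over rd10-vehicle. Bambi, listed here as well, had -0.15 and 0.15, and Hey2, at 104, 113 and 122 CPM, had 0.13 and 0.11. Smad7, an inhibitory Smad, was at 29.6 to 32.3 CPM. Atoh8 was at 2.41, 3.65 and 5.07 CPM, with a ratio of 0.92 (0.03 to 2.33) for rd10-TMB over WT from 8 WT UMIs. Of 7 of these targets tested, 0 were past the limit for rd10-vehicle over WT or rd10-TMB over rd10-vehicle. Of all MG-like genes, 9.78% were higher and 12.4% lower for the first of these pairs, and 2.36% and 3.75% for the second.

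In the related transforming growth factor beta branch, Tgfb2 was at 501, 434 and 453 CPM in MG-like cells. Skil, a feedback repressor of that branch, was higher in rd10 at 25.6, 48.1 and 40.9 CPM, with 0.89 (0.59 to 1.24) for rd10-vehicle over WT and 0.66 (0.35 to 1.02) for rd10-TMB over WT. Tgfb1 passed the limit against WT on 1 WT UMI, with intervals that included 0. Of 10 genes tested, 2 were higher and 0 lower in each rd10 library than in WT (of all genes, 9.78% higher and 12.4% lower in rd10-vehicle, 7.88% and 11.7% in rd10-TMB), and 0 were past the limit between the rd10 libraries.

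The E proteins, the partners of Id proteins, stayed within 1.5-fold. Tcf4 was at 705, 592 and 619 CPM, with -0.25 (-0.32 to -0.19) for rd10-vehicle over WT, Tcf12 at 63.4 to 65.7 CPM and Tcf3 at 38.3 to 42.2 CPM. Of these, 0 of 3 passed the limit for any pair, against 2.36% to 12.4% of all MG-like genes by pair and direction. Of the bHLH and Hes factors, Hes5, a Notch target of glia, was at 700, 488 and 605 CPM, with -0.52 (-0.59 to -0.46) for rd10-vehicle over WT and 0.31 (0.27 to 0.35) for rd10-TMB over rd10-vehicle, both within 1.5-fold. Neurod1, a photoreceptor factor, was at 29.2, 55.4 and 55.1 CPM, and the rod markers given above were higher in the same libraries, whose part in this value was not tested.

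Neurod4, Neurog2 and Bhlhe22 were lower in rd10-vehicle than in WT, at -0.84 (-1.34 to -0.25), -1.22 (-2.03 to -0.21) and -1.59 (-2.16 to -0.95), from levels of 2.03 to 11.1 CPM, and were at -0.78, -1.09 and -1.73 for rd10-TMB over WT. Heyl had 5, 22 and 8 UMIs, and its ratio passed the limit for rd10-vehicle over WT and for rd10-TMB over rd10-vehicle, with intervals that included 0. The amacrine markers in MG-like cells, at 1102 CPM in WT and 768 and 794 CPM in rd10, were lower in the same libraries, and their part was not tested. Of 11 bHLH and Hes factors tested, 2 were higher and 4 lower in rd10-vehicle than in WT (9.78% and 12.4% of all genes), 2 higher and 3 lower in rd10-TMB than in WT (7.88% and 11.7%), and of 12 tested, 0 higher and 1 lower with TMB than with vehicle (2.36% and 3.75%).

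**Figure D4:**
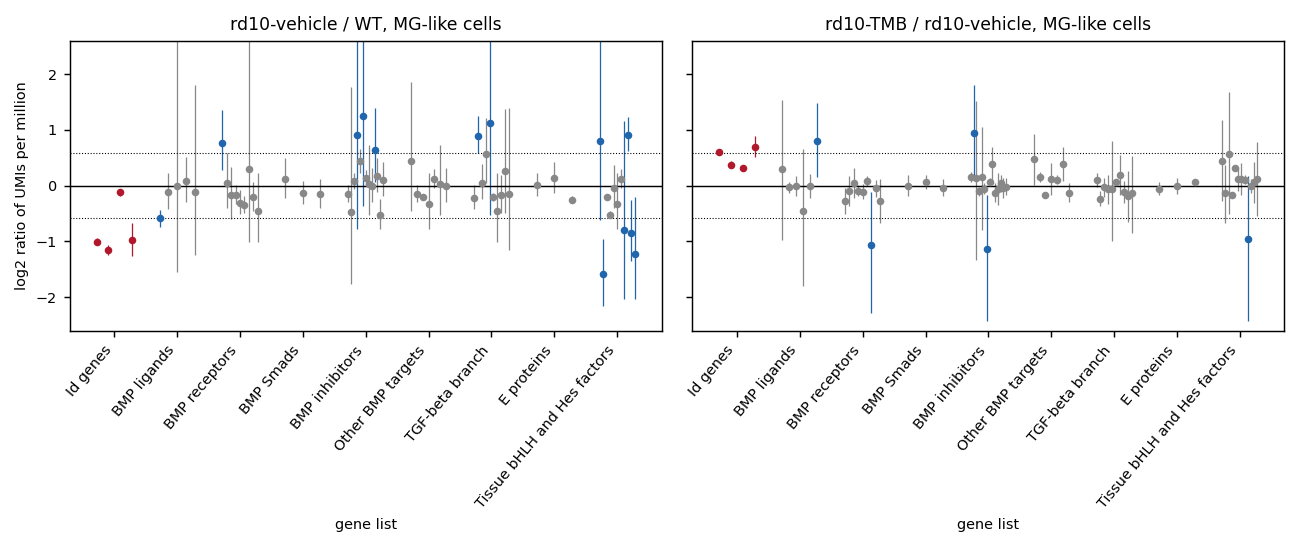
Log2 ratios of CPM (y axis) in MG-like cells for the Id genes (red) and for the genes of each list with at least 20 UMIs (grey, or blue when past 1.5-fold, dotted lines), rd10-vehicle over WT (left) and rd10-TMB over rd10-vehicle (right). Each point is 1 gene with its 95% counting interval, cut at the edge of the axis. The 4 Id genes lie at -1.16 to -0.12 on the left and at 0.33 to 0.70 on the right, and genes of the BMP lists lie on both sides of 0 in each panel.

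In endothelial-like cells without those led by bipolar markers, the highest receptors were Bmpr2 (443, 335 and 398 CPM), Eng (435, 359 and 417 CPM) and Acvrl1 (346, 389 and 391 CPM). Of these 0 passed the limit, against 5.68% to 8.87% of all genes by pair and direction. Smad1 was at 96.1, 149 and 126 CPM, with 0.63 (0.31 to 0.97) for rd10-vehicle over WT. Smad7 was at 275, 303 and 426 CPM and Smad6, the other inhibitory Smad, at 20.7, 23.7 and 35.9 CPM, with 0.63 (0.42 to 0.84) and 0.77 (0.04 to 1.59) for rd10-TMB over WT. Smad6 also passed the limit for rd10-TMB over rd10-vehicle, at 0.59 (-0.05 to 1.24). Bambi was at 107, 99.5 and 68.5 CPM, with -0.64 (-1.06 to -0.23) for rd10-TMB over WT.

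Msx1, a homeobox target of BMP, had 4, 22 and 13 UMIs, with a ratio of 1.53 (0.23 to 3.79) for rd10-vehicle over WT. Tgfb2 was lower in rd10, at 121, 49.2 and 72.6 CPM, with -1.30 (-1.71 to -0.90) and -0.74 (-1.14 to -0.34) over WT. Gdf11, Atoh8 and Acvr2b passed the limit against WT in at least 1 rd10 library with intervals that included 0. Tcf4, at 1170, 1126 and 1095 CPM, led the E proteins, and Hes1, at 649, 589 and 528 CPM, the Hes factors. Of the bHLH and Hes factors, 0 of 8 tested passed the limit here for rd10-vehicle over WT (7.40% of all genes higher and 8.32% lower) and 0 of 6 for rd10-TMB over WT (7.32% and 8.87%). With TMB over vehicle 1 of 8, Bhlhe22, was higher and 1, Hes6, lower (5.68% and 6.55%), with intervals that included 0.

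In the whole cluster, Neurod4, a bipolar and amacrine factor, was at 269 CPM in WT and 32.7 CPM in rd10-vehicle, and Neurod1, Bhlhe22 and Hes6 were lower as well, beside the bipolar markers given above. There, 4 of 8 such factors were lower for rd10-vehicle over WT, against 16.4% of all genes, and Bmp4, Rgma, Rgmb, Fstl1 and Nbl1 were past the limit in at least 1 rd10 library. Those 5 were within 1.5-fold of WT without the cells led by bipolar markers.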

How the data were processed

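Retinas were dissociated with papain and sequenced with 10x Genomics chemistry, and the authors aligned reads to mm10 with Cell Ranger 6.0.1, removed doublets and cells under 500 genes, and clustered with Seurat 3.2.2. The deposited matrix holds the natural log of 1 plus UMIs per 10000 UMIs of a cell, and the deposited cell table gives a count of UMIs, a library and a cluster for each cell. All 15242 cells gave whole UMIs (100% of 32620606 entries within 0.001 UMI), which were summed per class and library. The unit of these sums was thus the recovered count, and the authors deposited no replicate. Libraries differed in depth, with a median of 3509.5, 4811.5 and 4772.5 UMIs per cell in WT, rd10-vehicle and rd10-TMB, and deeper classes have narrower intervals.

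A cluster was named from markers at least 2-fold over the rest, at 20 CPM or more, with 3 markers or more. Ratios are log2 ratios of CPM with 1 UMI added per library, with exact conditional intervals, levels have exact Poisson and shares exact Clopper-Pearson intervals, all at 95% and for counting error only. A gene passed the limit at 1.5-fold with at least 20 UMIs over both libraries. A count of 0 was taken to allow 3 UMIs. For shares of cells, each cell was thinned at random to 1000 UMIs. No p-value was computed, since each group was 1 library. Id genes were followed in every class, and some of their values in small classes and unnamed clusters are not reported here. Most list genes were named where they passed the limit in MG-like or endothelial-like cells, or were among the highest of their list. Some list genes that are part of the counts are not reported here by name. The Id genes, lists, markers and comparisons were chosen with earlier results of these data known. Of 85 list entries 77 were in the matrix. Scripts were tested on simulated data and used Python 3.11.15, numpy 2.4.6, scipy 1.17.1 and pandas 2.3.3. Other scalings, pseudocounts, cell filters, thinning and cell subsets were tried. The 3′ UMIs do not compare levels between genes.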

Additional observations from a re-analysis of the deposited data

Results flagged for a closer look

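The ratio of an Id gene between the same libraries had opposite signs in different classes, with both intervals clear of 0, in 7 cases. None of these differences was tested, since each class came from 1 library per group.

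Id1 for rd10-TMB over WT was at 0.47 in the whole endothelial-like cluster and -0.40 in MG-like cells, 0.87 apart on the log2 scale. Without the cells led by bipolar markers the endothelial value was 0.18. For rd10-vehicle over WT, pericyte-like minus MG-like ratios came to 1.84 for Id1 and 1.04 for Id3, and for rd10-TMB over rd10-vehicle the MG-like Id1 ratio was 1.87 above the pericyte-like one. The pericyte-like Id1 values rest on 16, 42 and 13 UMIs.

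Id2 for rd10-TMB over rd10-vehicle was at 1.17 in astrocyte-like cells and -0.82 in microglia-like cells, 1.99 apart, from 33 and 30 rd10-TMB cells. Id4 in amacrine-like cells lay 4.12 above cluster 6 for rd10-vehicle over WT and 4.75 above it for rd10-TMB over WT. With WT limited to cells holding Xist but no Y-linked UMIs the amacrine-like ratios were 0.21 and 0.083.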

How the results depend on the processing

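No paired analysis was possible because each group was 1 pooled library. In MG-like cells the 116 alternative log2 ratios of the Id genes all kept their sign, and 15 left the interval of the reported value. For rd10-TMB over rd10-vehicle the ranges were 0.58 to 0.64 for Id1, 0.35 to 0.41 for Id2, 0.29 to 0.34 for Id3 and 0.30 to 0.72 for Id4. Without Lcn2-bearing cells, rd10-vehicle over WT was -0.93 for Id1 and -0.21 for Id3, and rd10-TMB over WT was -0.29 for Id1, -0.68 for Id2 and 0.13 for Id3. With cells thinned to 1000 UMIs, rd10-vehicle over WT was -0.19 for Id3 and -0.40 for Id4, rd10-TMB over WT was 0.097 for Id3, and rd10-TMB over rd10-vehicle was 0.29 for Id3 and 0.30 for Id4. When WT was limited to cells with Xist but without Y-linked UMIs, Id3 was at -0.020 in rd10-vehicle and 0.31 in rd10-TMB over WT. Median-of-ratios size factors gave -0.33 for Id1 and 0.28 for Id3 in rd10-TMB over WT, and the mean over cells gave 0.29 for Id3 between the rd10 libraries.

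In the endothelial-like cluster, Id1 and Id3 stayed above WT under each setting applied alone. With cells led by bipolar markers left out and the rest thinned to 1000 UMIs, Id1 was not above WT. It was then at 2689 CPM in WT, 2564 under vehicle and 2620 under TMB. In the order Id1 and Id3 in rd10-vehicle, then Id1 and Id3 in rd10-TMB, the ratios over WT were 0.67, 0.85, 0.70 and 0.72 as means over cells, 0.31, 0.38, 0.24 and 0.28 with a mitochondrial share of 10% or less, 0.26, 0.45, 0.21 and 0.37 with WT cells limited by Xist, and 0.22, 0.29, 0.18 and 0.22 without cells led by bipolar markers, an alternative chosen after seeing the data. Thinning gave 0.45 for Id1 and 0.94 for Id3 in rd10-vehicle, and 0.66 for Id3 in rd10-TMB. Cells with endothelial over pericyte markers, also chosen after seeing the data, gave 0.64 and 0.62 for Id1, and leaving out the top 5% of cells by UMIs gave 0.58 for Id1 and 0.63 for Id3 in rd10-TMB. Between the rd10 libraries, Id1 was 0.032 as a mean over cells, and Id3 was 0.0044 without the top 5% and -0.27 when thinned. Thinning reversed Id2 there to 0.50 and turned it to 0.43 for rd10-TMB over WT, from 9 or 10 UMIs a library, and reversed Id4 in astrocyte-like cells to -0.10.

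Of the BMP list genes in MG-like cells, a minimum of 50 UMIs left 2 higher in rd10-vehicle than in WT and 0 lower with TMB than with vehicle. A 2-fold limit left 1 higher and 0 lower for rd10-vehicle over WT, 1 higher and 0 lower for rd10-TMB over WT, and 0 higher for rd10-TMB over rd10-vehicle. The cause of these shifts was not tested, beyond the fewer genes or cells that some settings keep. With 1 library a group, the spread between mice is unknown.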
